A study of Mus musculus with 12 samples.

Results

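The genes described here encode the receptors that bind lipopolysaccharide (LPS) and interferon gamma (IFNγ), with the adaptors and kinases attached to them. They were chosen by name as the rows of Lbp, Cd14, Tlr4, Ly96, Myd88, Ticam1, Ifngr1, Ifngr2, Jak1 and Jak2, which are 10 of the 29428 genes in the table. STHdhQ7 and STHdhQ111 cells are immortalized striatal lines from mice whose huntingtin carries 7 or 111 glutamine repeats, and the labels call the genotype of STHdhQ7/Q7 normal. The 4 groups were nontreated STHdhQ7/Q7 cells (Q7-C), STHdhQ7/Q7 cells kept for 24 h with 100 ng/mL murine IFNγ and 5 µg/mL LPS (Q7-T), nontreated STHdhQ111/Q111 cells (Q111-C) and STHdhQ111/Q111 cells under the same treatment (Q111-T). Each group held 3 poly(A) RNA-seq libraries. Each genotype is represented by 1 cell line, so the huntingtin genotype and other differences between the lines cannot be told apart. IFNγ and LPS were given together, so the response to either agent alone cannot be told apart, and although the study calls the replicates biological, nothing in the labels says that they were separate cultures. The p-values then measure the spread between libraries, which may be technical.

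LPS, a component of the outer membrane of Gram-negative bacteria, is taken up by the soluble protein LBP and handed to CD14, which passes it to the complex of TLR4 and its co-receptor MD-2 (gene Ly96). The bound receptor signals through the adaptor MYD88 to NF-kB from the cell surface, and through the adaptor TRIF (gene Ticam1) to IRF3 and type I interferon from endosomes. IFNγ binds IFNGR1, the ligand-binding chain, which pairs with IFNGR2. The kinases JAK1 and JAK2, bound to IFNGR1 and IFNGR2, then start signalling inside the cell. In the brain these pathways are best known from microglia, the resident macrophages.

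Per library, the sum of the estimated counts ranged from 57505990 to 96417834, with a median of 67234786. Q7-T replicate 2 stood apart, as its nearest library over all genes tested was Q7-C replicate 1. Compared with the other 2 libraries of its group, Q7-T replicate 2 was lower for long transcripts, with a median difference of -0.99 in log2(TPM + 0.5) in the longest of 3 equal length classes of genes against -0.02 in the shortest. For Q7-C replicate 1 the same medians were -0.74 and 0.05, and for Q111-T replicate 2 they were -0.46 and 0.04. For the 10 genes, values without both STHdhQ7 libraries, a comparison chosen after seeing the data, are given below where they came to the other side of a threshold, with some of the others. Defining markers of the labelled striatal neuronal type were scarce. Of the 7 neuron markers with a row, Snap25, Syt1, Adora2a, Gad1 and Gad2 were under 0.5 TPM in all 12 libraries, while Penk and Ppp1r1b passed the filter on low values. The summed level of the list was 0.290 to 0.836 TPM in Q7-C and 0.173 to 0.636 in Q7-T, against 5.18 to 6.83 in Q111-C and 2.50 to 2.98 in Q111-T. Of 9 macrophage or microglia markers with a row, Itgam, Csf1r, Ptprc, Adgre1, P2ry12, Fcgr1 and Trem2 stayed under 0.5 TPM throughout, and Cd68 and Tmem119 passed the filter. This list summed to between 17.9 and 20.6 TPM in Q7-C and 12.1 and 18.2 in Q7-T, and to between 31.9 and 37.04 in Q111-C and 46.3 and 62.9 in Q111-T. Cd68, which is not confined to macrophages, made up most of it in Q111-T, at 40.3 to 57.5 TPM. The 6 mesenchymal markers all passed the filter, with summed levels of 2747 to 3358 TPM in Q7-C and 1851 to 2286 in Q7-T, and of 4261 to 4475 in Q111-C and 1710 to 2040 in Q111-T. Of 6 astrocyte markers, Slc1a3 and Aldh1l1 passed the filter and the list summed to at most 1.98 TPM in STHdhQ7 cells and to at most 11.1 TPM in STHdhQ111 cells. None of 4 endothelial markers passed, and their sum was at most 1.65 TPM. These lists moved with line and treatment, and their part in the results below was not tested. In bulk RNA, fewer cells of a type and less RNA per cell cannot be told apart.

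The level of each gene is given as TPM, a measure per transcript length within a library. Fold changes come from edgeR's quasi-likelihood test on the estimated counts, in one fit of all 12 libraries. A gene was called when its Benjamini-Hochberg adjusted p over the 16127 genes tested was under 0.05 and its change was at least 2-fold. On the log2(TPM + 0.5) scale the median difference of all genes tested between STHdhQ111 and STHdhQ7 cells was 0.274 without treatment and 0.341 with it, so TPM ratios between the lines exceed the fold changes given below. The treatment comparisons moved by less on that scale, with medians of -0.162 in STHdhQ7 cells and -0.101 in STHdhQ111 cells. All 10 genes passed the filter of 0.5 TPM in 3 libraries. Lbp passed it with 8 libraries, which included all treated ones and none of Q7-C.

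In nontreated cells, Cd14, Tlr4, Lbp and Ifngr2 were higher in STHdhQ111 cells, so that 4 of the 10 genes were called in Q111-C vs. Q7-C, all upward, where 15.2% of all genes tested were called and 7.62% were called upward. The same 4 genes were called upward in Q111-T vs. Q7-T, against 24.5% of all genes in either direction and 13.3% upward. IFNγ/LPS raised Lbp, Cd14 and Myd88 in STHdhQ7 cells (3 of 10 called, against 4.04% of all genes and 2.93% upward) and Lbp, Cd14, Myd88 and Jak2 in STHdhQ111 cells (4 of 10 called, against 11.2% of all genes and 8.28% upward). None of the 10 was called downward in any of these comparisons. With the adjusted p alone, 5 of the 10 differed between the nontreated lines and 8 between the treated lines, 3 responded in STHdhQ7 cells and 4 in STHdhQ111 cells, against 22.7%, 38.4%, 5.35% and 18.7% of all genes. The median log2 fold change of the 10 genes was 0.59, 0.91, 0.40 and 0.56 in the same order, beside medians of all genes tested between -0.03 and 0.00. The TPM of 7, 8, 2 and 7 of the 10 genes did not overlap between the groups compared, beside 51.4%, 46.3%, 14.4% and 49.6% of all genes.

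**Figure D1:**
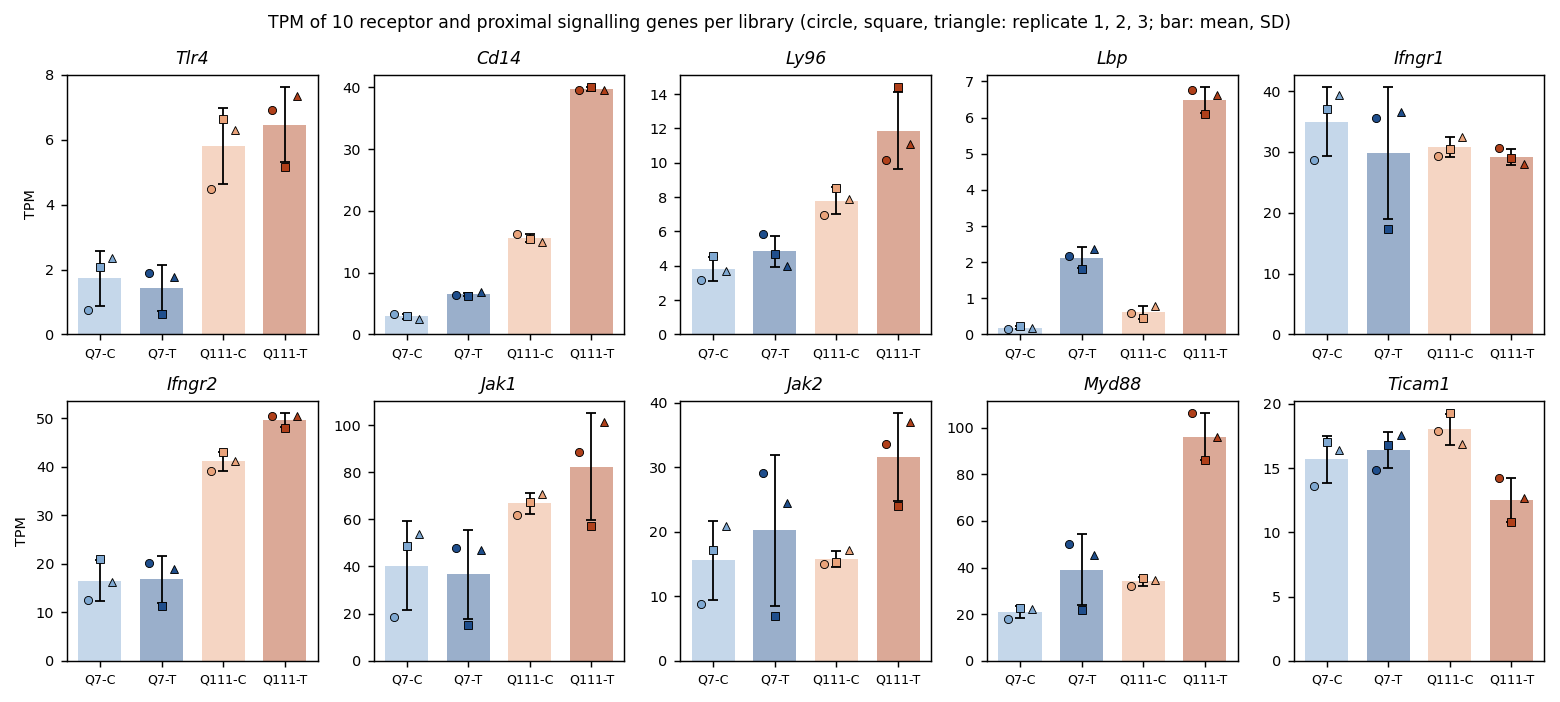
TPM of each of the 10 genes in the 12 libraries, with bars for the mean and error lines for the SD of 3 libraries per group. Circles, squares and triangles are replicates 1, 2 and 3, each panel has its own axis from 0, and Cd14 and Lbp separate all 4 groups.

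Lbp (ENSMUSG00000016024) is on chromosome 2 (plus strand, 158306493 to 158320956), in GRCm38 coordinates as for all genes here. Its product is a secreted protein made mainly by the liver, which extracts LPS from bacterial membranes. Lbp had 0.142, 0.230 and 0.189 TPM in the Q7-C libraries and 2.17, 1.81 and 2.38 TPM in Q7-T. In STHdhQ111 cells the values were 0.598, 0.450 and 0.794 TPM without treatment and 6.77, 6.09 and 6.61 TPM after it. Every treated library was above every nontreated one of either line, and within each condition every STHdhQ111 library was above every STHdhQ7 library. The estimated counts behind the Q7-C values were only 27 to 43. Treatment raised Lbp by 3.68 on the log2 scale in STHdhQ7 cells (standard error 0.273, adjusted p = 4.84e-06 from edgeR) and by 3.49 in STHdhQ111 cells (standard error 0.266, adjusted p = 3.68e-06, edgeR). These were 12.8-fold and 11.2-fold increases, larger than those of the other 9 genes in either line. They depended on the scale for this low gene, with log2 values of 1.93 and 2.66 in limma on log2(TPM + 0.5) and of 1.39 and 2.22 at the lowest, all called. The difference between the responses was -0.19 (approximate 95% interval -0.95 to 0.57, adjusted p = 0.815, edgeR), and its sign turned with the scale, to 0.73 in limma on log2(TPM + 0.5), to 0.83 in limma on log2(TPM + 1), where it passed the adjusted p (0.0249) under 2-fold, and to 0.016 without the 2 libraries that stood apart. Between the lines, Lbp was higher in STHdhQ111 cells by 1.38 without treatment (standard error 0.257, adjusted p = 0.00212, edgeR) and by 1.19 with it (standard error 0.244, adjusted p = 0.00275, edgeR). The basal call was lost in limma on log2(TPM + 0.5) and log2(TPM + 1), where the pseudocount exceeds the Q7-C level and the differences were 0.69 and 0.44, and on quantile-normalized log2(TPM + 0.5), at 0.43 (adjusted p = 0.125). The last of these also lost the call in treated cells, at 0.89.

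Cd14 (ENSMUSG00000051439, minus strand of chromosome 18, 36725067 to 36726798) encodes the membrane-anchored co-receptor that delivers LPS to TLR4 and is a classical surface marker of monocytes and macrophages. It had 3.30, 2.96 and 2.54 TPM in Q7-C and 6.42, 6.23 and 6.81 TPM in Q7-T. The Q111-C libraries had 16.2, 15.5 and 15.0 TPM, and the Q111-T libraries 39.6, 40.1 and 39.5 TPM. The 4 groups followed one another without overlap, and nontreated STHdhQ111 cells were above treated STHdhQ7 cells in every library. The log2 fold change between the lines was 2.04 without treatment (standard error 0.253, adjusted p = 1.29e-04, edgeR) and 2.17 with treatment (standard error 0.253, adjusted p = 6.00e-05, edgeR), and both were called in all 24 alternatives. Treatment raised Cd14 by 1.33 in STHdhQ7 cells (standard error 0.249, adjusted p = 0.00755, edgeR) and by 1.46 in STHdhQ111 cells (standard error 0.246, adjusted p = 0.00146, edgeR). The adjusted p of the STHdhQ7 response was 0.139 in a fit limited to the 6 libraries of that line, and the value came under 2-fold, at 0.93, in limma on log2(TPM + 1). The responses differed by 0.13 (approximate 95% interval -0.63 to 0.89, adjusted p = 0.883, edgeR). The summed macrophage or microglia list was also higher in STHdhQ111 cells, and its 9 members differed. Itgam, Ptprc, Adgre1, P2ry12 and Fcgr1 reached at most 0.127 TPM in any library. Trem2 had 0.178 to 0.440 TPM in Q111-T against at most 0.111 in Q7-T, and Csf1r had 0.185 to 0.479 against 0.109 to 0.152. Cd68 had 40.3 to 57.5 TPM in Q111-T against 8.69 to 15.1 in Q7-T, and Tmem119 had 4.52 to 5.61 against 2.96 to 3.34. Without treatment Tmem119 had 17.4 to 20.2 TPM in Q111-C against 11.9 to 13.1 in Q7-C, so it was higher in STHdhQ111 cells in both conditions and, unlike Cd14, lower in the treated libraries of each line. The part of these markers in the Cd14 values was not tested.

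The signalling receptor itself, Tlr4 (ENSMUSG00000039005, plus strand of chromosome 4, 66827584 to 66930284), was low in STHdhQ7 cells, with 0.765, 2.07 and 2.37 TPM in Q7-C and 1.89, 0.630 and 1.78 TPM in Q7-T. The STHdhQ111 values were 4.48, 6.64 and 6.32 TPM without treatment and 6.92, 5.15 and 7.34 TPM with it. All 6 STHdhQ111 libraries were above all 6 STHdhQ7 libraries, while treated and nontreated libraries of the same line overlapped. Tlr4 was higher in STHdhQ111 cells by 1.49 on the log2 scale without treatment (standard error 0.312, adjusted p = 0.00454, edgeR) and by 1.85 with treatment (standard error 0.316, adjusted p = 8.82e-04, edgeR). The 2 lowest values were those of Q7-C replicate 1 and Q7-T replicate 2, and without these libraries the differences were 1.22 and 1.66, still called. For the treatment, the log2 fold change was -0.11 in STHdhQ7 cells (approximate 95% interval -0.78 to 0.57, adjusted p = 0.921, edgeR) and 0.25 in STHdhQ111 cells (-0.42 to 0.92, adjusted p = 0.675, edgeR). The STHdhQ7 value turned positive when single libraries were left out, and was -0.19 without both libraries that stood apart.

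Ly96 (ENSMUSG00000025779, plus strand of chromosome 1, 16688051 to 16709611), whose product MD-2 forms the pocket that holds LPS, had 3.199, 4.58 and 3.67 TPM in Q7-C and 5.83, 4.68 and 4.02 TPM in Q7-T. It had 6.94, 8.54 and 7.89 TPM in Q111-C and 10.1, 14.4 and 11.1 TPM in Q111-T. In TPM the lines did not overlap in either condition, and Q111-T was above Q111-C, whereas Q7-T overlapped Q7-C. Ly96 was past the adjusted p in Q111-T vs. Q7-T, with a log2 fold change of 0.87, under 2-fold (standard error 0.292, adjusted p = 0.0353, edgeR). It was called in 6 of 24 alternatives, among them the fit without the 2 libraries that stood apart (1.15), whereas the adjusted p was 0.105 in the fit of the 2 groups alone and reached 0.127 at most. In Q111-C vs. Q7-C the value was 0.71 (adjusted p = 0.111, edgeR). It was called in limma on log2(TPM + 0.1), at 1.02, and passed the adjusted p in limma on log2(TPM + 0.5) (0.95, adjusted p = 0.00654) and in the fit of the 2 groups alone (adjusted p = 0.0447, edgeR). Treatment gave 0.57 in STHdhQ7 cells (adjusted p = 0.399, edgeR) and 0.73 in STHdhQ111 cells (adjusted p = 0.112, edgeR), neither past the threshold. Without the 2 libraries the STHdhQ7 value was 0.33, and the STHdhQ111 value of 0.74 was past the adjusted p (0.0387, edgeR).

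Myd88 (ENSMUSG00000032508, minus strand of chromosome 9, 119335934 to 119340041) and Ticam1 encode the adaptors of the 2 branches below TLR4, and MYD88 also serves most other Toll-like receptors and the interleukin-1 receptors. Promoter sequences, 250 bases before to 50 after the annotated start, were taken from RefSeq (GRCm38.p6), which matched 6 of the 10 genes, namely Myd88, Ticam1, Ifngr1, Ifngr2, Jak1 and Jak2. They were searched on both strands for the IFNγ-response motif GAS (TTCNNNGAA), the interferon motif ISRE (TTTC, any 2 bases, TTTC) and the NF-kB motif. Of 32851 RefSeq promoters of this length, 8.30% hold GAS, 3.44% ISRE, 4.51% the NF-kB motif and 15.3% at least 1 of them. Myd88 is printed because it was the adaptor that treatment raised in both lines and because its promoter held a GAS match that overlaps an ISRE match on the other strand. The capitals mark the stretch from the first to the last base of these overlapping matches, with GAS as TTCTCGGAA from 46 bases before the start and ISRE, as read on the printed strand, as GAAAGCGAAA from 40 bases before it. The promoter lies on the minus strand at chr9:119339969-119340268 and reads 5′ to 3′:
Myd88: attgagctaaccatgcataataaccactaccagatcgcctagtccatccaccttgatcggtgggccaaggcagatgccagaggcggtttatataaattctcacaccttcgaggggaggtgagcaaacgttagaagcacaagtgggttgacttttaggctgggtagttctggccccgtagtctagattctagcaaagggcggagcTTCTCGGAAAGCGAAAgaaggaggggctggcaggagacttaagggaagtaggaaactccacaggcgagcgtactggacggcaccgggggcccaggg

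Myd88 had 17.9, 22.6 and 22.3 TPM in Q7-C and 50.3, 21.7 and 45.3 TPM in Q7-T. In STHdhQ111 cells it had 32.1, 35.5 and 34.6 TPM without treatment and 106, 86.2 and 95.9 TPM with it. Q7-T replicate 2 was within the range of nontreated STHdhQ7 cells, while every Q111-T library exceeded every other library. Treatment raised Myd88 by 1.59 on the log2 scale in STHdhQ111 cells (standard error 0.144, adjusted p = 1.32e-05, edgeR), a call kept in all 24 alternatives. In STHdhQ7 cells it rose by 1.02 (standard error 0.142, adjusted p = 8.13e-04, edgeR), just past 2-fold, and by 1.17 without the 2 libraries that stood apart. This call was lost in 8 of 24 alternatives, among them the fit of the 6 STHdhQ7 libraries alone (adjusted p = 0.0515, edgeR) and the fits without Q7-C replicate 3, Q7-T replicate 1 or Q7-T replicate 3. The response was larger in STHdhQ111 cells by 0.57, with an unadjusted p of 0.0148 but an adjusted p of 0.131 (edgeR interaction test, adjusted over all genes). In DESeq2 the difference was 0.56 with an adjusted p of 0.0287. Between the lines, the log2 fold change was 0.39 without treatment (adjusted p = 0.0716, edgeR, but 0.00347 without the 2 libraries that stood apart) and 0.96 with it (standard error 0.141, adjusted p = 3.28e-04, edgeR), the latter under 2-fold and called in 7 of 24 alternatives. Exons of Myd88 overlap those of Acaa1a on the opposite strand, and whether the counting used strand is not given in the sources used here. Acaa1a responded to treatment by 0.16 on the log2 scale in STHdhQ7 cells and by -0.0044 in STHdhQ111 cells, neither past the threshold.

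Ticam1 (ENSMUSG00000047123, minus strand of chromosome 17, 56269319 to 56276786) had 13.6, 17.0 and 16.4 TPM in Q7-C and 14.8, 16.8 and 17.5 TPM in Q7-T. The Q111-C libraries had 17.9, 19.3 and 16.9 TPM and the Q111-T libraries 14.2, 10.8 and 12.6 TPM. Q111-T was below Q111-C and below Q7-T in every library. Ticam1 was the only one of the 10 genes past the adjusted p with a lower level in Q111-T vs. Q7-T, at -0.85 (standard error 0.209, adjusted p = 0.00781, edgeR). This is under 2-fold, and the value was -0.52 without the 2 libraries that stood apart and -0.38 (adjusted p = 0.0905) in limma on log2(TPM + 0.5). In the fit of those 2 groups alone the adjusted p was 0.0546 (edgeR). It was called in 1 of 24 alternatives, at -1.04 without Q7-T replicate 1. In STHdhQ111 cells treatment gave -0.43 (approximate 95% interval -0.88 to 0.03, adjusted p = 0.202, edgeR), and in STHdhQ7 cells 0.31 (-0.15 to 0.77, adjusted p = 0.566, edgeR). The difference between these responses, -0.74, had an unadjusted p of 0.0288 and an adjusted p of 0.189 (edgeR). Without the 2 libraries that stood apart, the STHdhQ7 value was 0.04 and the difference between the responses -0.46, while the STHdhQ111 value of -0.42 was past the adjusted p (0.0170, edgeR).

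Setting both adaptors against each other within each library removes the scaling between libraries. Ticam1 TPM divided by Myd88 TPM was 0.762, 0.753 and 0.736 in Q7-C and 0.295, 0.774 and 0.387 in Q7-T. It was 0.557, 0.542 and 0.488 in Q111-C and 0.134, 0.125 and 0.132 in Q111-T. In treated STHdhQ111 cells the ratio was therefore the lowest of the 4 groups, with no overlap with any other group. The log2 ratio fell by 2.02 from Q111-C to Q111-T. A two-sided exact permutation test gave p = 0.1, the smallest that 3 libraries against 3 allow, and 0.182 after adjustment over the 20 ratio comparisons made. For STHdhQ7 cells the log2 difference with treatment was -0.75 with overlap (exact permutation p = 0.4), and -1.14 without the 2 libraries that stood apart.

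The transcripts of the IFNγ receptor chains, Ifngr1 and Ifngr2, moved differently between the lines. The promoters of both genes are shown because Ifngr2, which had the higher level in STHdhQ111 cells, held an NF-kB motif match, and Ifngr1 held none of the 3 motifs. The match in Ifngr2, GGAAAGTCCC, starts 75 bases before the annotated start, lies on the opposite strand and is given in capitals. The promoter of Ifngr1 is at chr10:19591699-19591998 and that of Ifngr2 at chr16:91546809-91547108, both on the plus strand. Jak1, Jak2 and Ticam1 held no match in this window. The part of any of these motif matches, that of Myd88 included, in the levels of the genes was not tested.
Ifngr1: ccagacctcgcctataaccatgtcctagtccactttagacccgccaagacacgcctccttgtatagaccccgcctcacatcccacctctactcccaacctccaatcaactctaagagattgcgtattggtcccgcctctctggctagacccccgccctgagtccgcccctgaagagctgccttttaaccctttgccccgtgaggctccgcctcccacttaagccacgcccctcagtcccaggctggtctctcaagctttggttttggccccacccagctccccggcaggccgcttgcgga
Ifngr2: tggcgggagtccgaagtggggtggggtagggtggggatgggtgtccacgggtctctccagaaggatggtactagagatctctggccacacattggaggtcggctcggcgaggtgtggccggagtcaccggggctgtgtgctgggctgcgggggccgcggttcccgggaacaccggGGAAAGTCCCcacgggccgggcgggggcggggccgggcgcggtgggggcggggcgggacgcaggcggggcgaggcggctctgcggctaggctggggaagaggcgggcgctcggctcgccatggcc

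Ifngr1 (ENSMUSG00000020009, plus strand of chromosome 10, 19591949 to 19610229) had 28.6, 37.05 and 39.3 TPM in Q7-C and 35.7, 17.4 and 36.6 TPM in Q7-T. It had 29.4, 30.5 and 32.5 TPM in Q111-C and 30.6, 29.0 and 28.0 TPM in Q111-T. The ranges of all 4 groups overlapped, with Q7-T replicate 2 alone under 28 TPM. Between the nontreated lines Ifngr1 differed by -0.49 on the log2 scale (standard error 0.140, adjusted p = 0.0249, edgeR), past the adjusted p and under 2-fold, but -0.17 (adjusted p = 0.674) in limma on log2(TPM + 0.5) and just over the threshold with the replicate block (adjusted p = 0.05004, edgeR). In treated cells it was -0.37 (adjusted p = 0.0550, edgeR) and 0.04 in that limma fit, a change of sign, against -0.44 (adjusted p = 0.00620, edgeR) without the 2 libraries that stood apart. Treatment gave -0.09 in STHdhQ7 cells (approximate 95% interval -0.40 to 0.22, adjusted p = 0.832, edgeR) and 0.03 in STHdhQ111 cells (-0.28 to 0.34, adjusted p = 0.932, edgeR), and both signs turned in some alternatives, the former to 0.0052 without the 2 libraries.

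Ifngr2 (ENSMUSG00000022965, plus strand of chromosome 16, 91547072 to 91565623) had 12.5, 20.9 and 16.2 TPM in Q7-C and 20.1, 11.2 and 19.0 TPM in Q7-T. The Q111-C libraries had 39.2, 43.1 and 41.1 TPM and the Q111-T libraries 50.4, 47.9 and 50.4 TPM. All 6 STHdhQ111 libraries exceeded all 6 STHdhQ7 libraries, and Q111-T was above Q111-C in TPM. The difference between the lines was 1.01 without treatment (standard error 0.136, adjusted p = 2.27e-04, edgeR) and 1.20 with treatment (standard error 0.137, adjusted p = 5.30e-05, edgeR). The basal value was close to the 2-fold threshold and came under it without Q7-C replicate 1, without Q7-C replicate 3 and without both libraries that stood apart (0.97), always with an adjusted p of at most 0.00181 over the 24 alternatives. For the treatment, the log2 fold change was 0.19 in STHdhQ7 cells (-0.11 to 0.49, adjusted p = 0.590, edgeR) and 0.37 in STHdhQ111 cells (0.08 to 0.67, adjusted p = 0.0808, edgeR). The latter was 0.38 and past the adjusted p (0.0198, edgeR) without the 2 libraries.

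The TPM of Ifngr2 relative to that of Ifngr1 in the same library was 0.435, 0.564 and 0.412 in Q7-C and 0.563, 0.646 and 0.520 in Q7-T. It was 1.33, 1.41 and 1.26 in Q111-C and 1.65, 1.65 and 1.80 in Q111-T. The transcript with the higher TPM was thus Ifngr1 in all 6 STHdhQ7 libraries and Ifngr2 in all 6 STHdhQ111 libraries. The difference of the mean log2 ratio was 1.52 in nontreated cells and 1.56 in treated cells, each with an exact permutation p of 0.1, the smallest possible. Without the 2 libraries that stood apart the differences were 1.47 and 1.65.

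**Figure D2:**
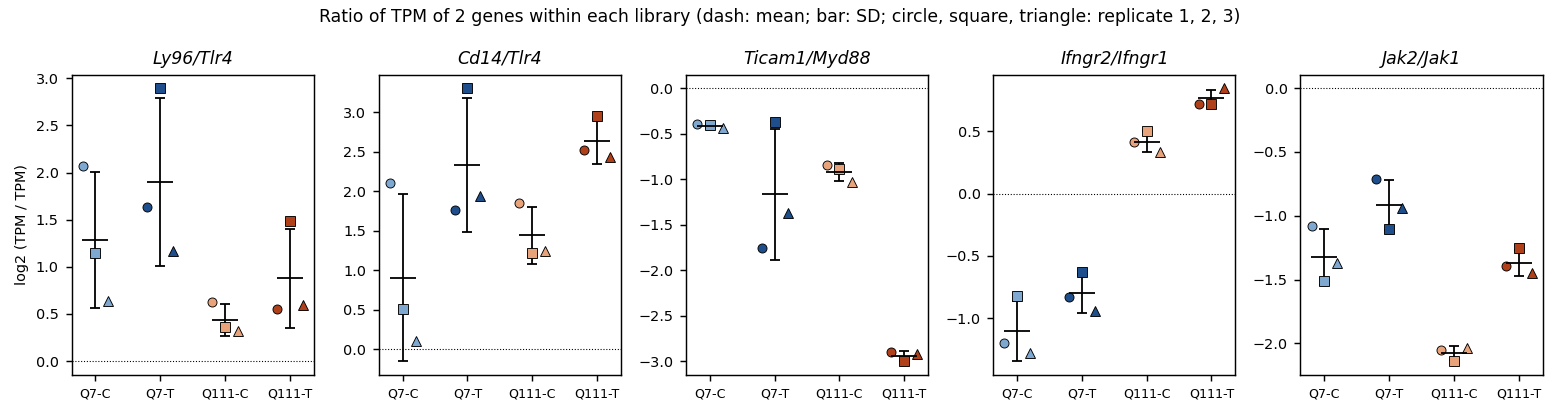
Log2 of the TPM of one gene divided by that of its partner in the same library, with a dash for the mean and a bar for the SD of 3 libraries per group and a dotted line at equal TPM. The Ifngr2/Ifngr1 ratio lies below equal TPM in all STHdhQ7 libraries and above it in all STHdhQ111 libraries, and Ticam1/Myd88 is lowest in Q111-T.

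Jak1 (ENSMUSG00000028530, minus strand of chromosome 4, 101152367 to 101265282), the kinase bound to IFNGR1 and to many other cytokine receptors, had 18.7, 48.7 and 53.8 TPM in Q7-C and 47.7, 15.0 and 47.1 TPM in Q7-T. In STHdhQ111 cells it had 61.95, 67.5 and 70.8 TPM without treatment and 88.6, 57.0 and 101.2 TPM with it. The 2 low STHdhQ7 values belong to the libraries that stood apart, and the value of Q111-T replicate 2 was the lowest of its group. Jak1 was past the adjusted p in Q111-T vs. Q7-T, at 0.85 (standard error 0.299, adjusted p = 0.0432, edgeR) and under 2-fold, and 0.63 without both STHdhQ7 libraries. It was called in 3 of 24 alternatives, but the adjusted p was 0.0531 in limma on log2(TPM + 0.5), 0.0733 in the fit of the 2 groups alone and 0.127 at most. In Q111-C vs. Q7-C it was 0.48 (adjusted p = 0.306, edgeR), and 0.21 without them. Treatment gave 0.01 in STHdhQ7 cells (approximate 95% interval -0.64 to 0.66, adjusted p = 0.996, edgeR), with a sign that turned in several alternatives, and 0.38 in STHdhQ111 cells (-0.27 to 1.03, adjusted p = 0.461, edgeR, but 0.0385 without both STHdhQ7 libraries). Exons of Jak1 overlap those of Raver2 on the opposite strand, which had a mean of at most 0.115 TPM in every group.

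Jak2 (ENSMUSG00000024789, plus strand of chromosome 19, 29251828 to 29313080), which binds IFNGR2, had 8.80, 17.1 and 20.8 TPM in Q7-C and 29.1, 7.004 and 24.5 TPM in Q7-T. The Q111-C libraries had 14.9, 15.3 and 17.2 TPM and the Q111-T libraries 33.6, 23.9 and 37.04 TPM. In STHdhQ111 cells the groups did not overlap and Jak2 rose by 1.08 on the log2 scale (standard error 0.296, adjusted p = 0.0252, edgeR). The call was kept in 16 of 24 alternatives. It was lost in the 3 limma fits on log2 TPM without quantile normalization and in the fits without Q111-C replicate 1, 2 or 3 or without Q111-T replicate 1 or 3. In STHdhQ7 cells the groups overlapped through Q7-T replicate 2, at 0.49 (approximate 95% interval -0.15 to 1.13, adjusted p = 0.503, edgeR). Without the 2 libraries that stood apart this value was 0.58 and past the adjusted p (0.0340, edgeR), under 2-fold. The responses differed by 0.59 (-0.32 to 1.4996, adjusted p = 0.476, edgeR). Between the lines, the values were -0.24 without treatment (adjusted p = 0.625, edgeR) and 0.35 with it (adjusted p = 0.370, edgeR), the latter 0.08 without both libraries. The basal value was -0.43 (adjusted p = 0.0283, edgeR) without both libraries and 0.10 in limma on log2(TPM + 0.5), the opposite sign.

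Jak2 relative to Jak1 in the same library was 0.472, 0.351 and 0.387 in Q7-C and 0.611, 0.466 and 0.520 in Q7-T, against 0.241, 0.227 and 0.243 in Q111-C and 0.380, 0.419 and 0.366 in Q111-T. The Jak1 transcript had the higher TPM in all 12 libraries. The ratio was lower in STHdhQ111 cells than in STHdhQ7 cells, with log2 differences of -0.76 without treatment and -0.45 with it, and rose by 0.71 with treatment in STHdhQ111 cells, each without overlap (exact permutation p = 0.1). In STHdhQ7 cells the log2 difference was 0.40 with overlap (exact permutation p = 0.2), and 0.61 without the 2 libraries.

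**Figure D3:**
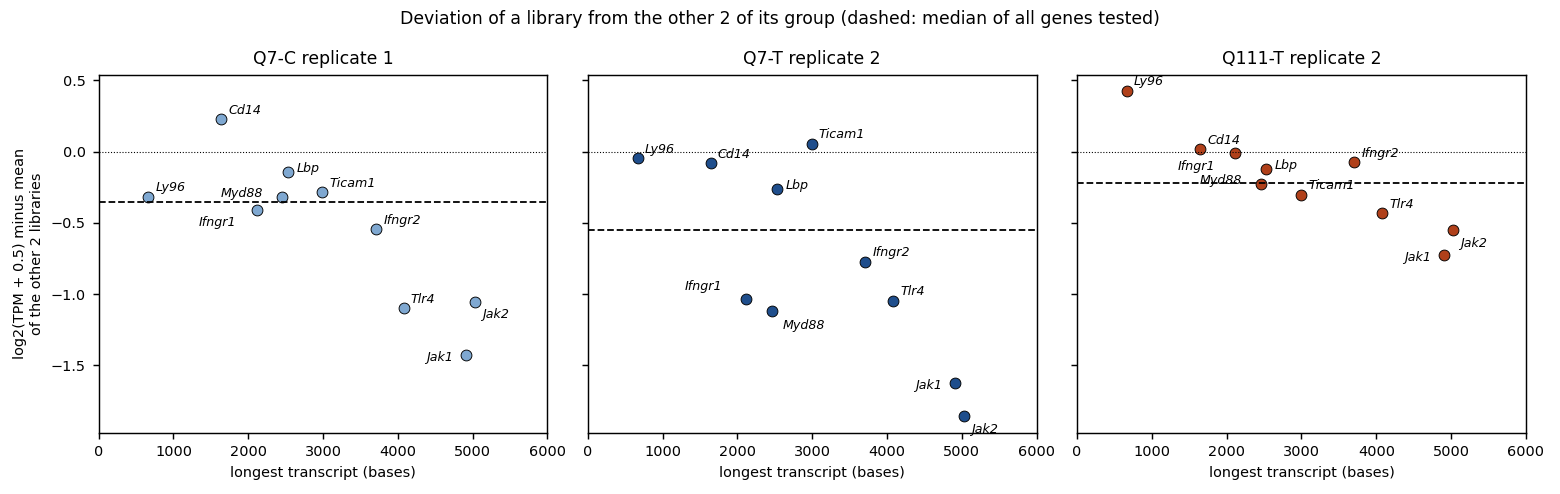
Difference in log2(TPM + 0.5) between one library and the mean of the other 2 of its group, for each of the 10 genes, against the length of its longest transcript in bases. Dashed lines mark the median of all genes tested, and Jak1 and Jak2 lie lowest in Q7-T replicate 2.

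The 10 genes differed in how they deviated in Q7-T replicate 2. Jak2 was lower there than in the other 2 Q7-T libraries by a log2(TPM + 0.5) difference of -1.86, Jak1 of -1.63, Myd88 of -1.12, Tlr4 of -1.05, Ifngr1 of -1.03 and Ifngr2 of -0.77. In contrast, Lbp differed by -0.27, Cd14 by -0.08, Ly96 by -0.05 and Ticam1 by 0.06. In Q7-C replicate 1 the lowest were Jak1 at -1.43, Tlr4 at -1.10 and Jak2 at -1.06, while Cd14 was higher by 0.23. Across all genes with a length, the deviation of Q7-T replicate 2 had a Pearson r of -0.344 with log2 length and of 0.244 with GC content (16108 genes, which are not independent replicates). The part of transcript length or RNA quality in the STHdhQ7 results was not tested.

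In the order of levels, Lbp was the lowest of the 10 genes in Q7-C and Q111-C, at 0.187 ± 0.0441 and 0.614 ± 0.172 TPM (SD, n = 3). In the treated groups Lbp and Tlr4 shared the bottom and overlapped, at 2.12 ± 0.289 and 1.43 ± 0.697 TPM in Q7-T and at 6.49 ± 0.355 and 6.47 ± 1.16 TPM in Q111-T. Jak1 led in the nontreated groups, with 40.4 ± 19.0 TPM in Q7-C, where it overlapped Ifngr1, and 66.7 ± 4.47 TPM in Q111-C, where it was above all other genes in every library. Myd88 led in the treated groups, with 39.1 ± 15.3 TPM in Q7-T and 96.1 ± 10.0 TPM in Q111-T, overlapping Jak1 in both. Cd14 was at the level of Ly96 in Q7-C and overlapped it, at 2.93 ± 0.378 against 3.82 ± 0.704 TPM. In Q111-T it was at 39.7 ± 0.285 TPM, apart from Ifngr2 above it and Jak2 below it. Relative to Tlr4 in the same library, Cd14 went from a geometric mean ratio of 2.72 in Q111-C to 6.21 in Q111-T without overlap (exact permutation p = 0.1). In STHdhQ7 cells this ratio went from 1.88 to 5.05 with overlap (exact permutation p = 0.3). The log2 differences were 1.19 in STHdhQ111 cells and 1.43 in STHdhQ7 cells. Ly96 relative to Tlr4 was lower in Q111-C, at 1.36, than in Q7-C, at 2.43, without overlap (exact permutation p = 0.1). This log2 difference of -0.84 was -0.45 without Q7-C replicate 1, which stood apart.

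**Figure D4:**
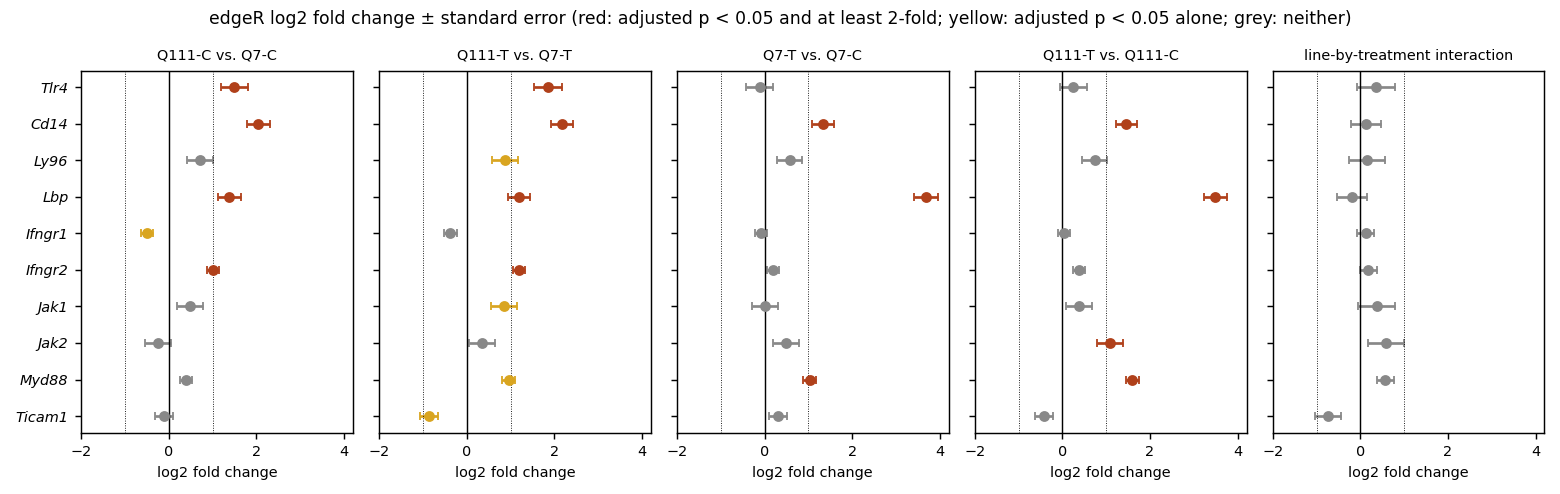
Log2 fold change with its standard error from edgeR for the 10 genes in the 4 comparisons and the line-by-treatment interaction. Red points are called, yellow points passed the adjusted p alone and grey points neither. Tlr4, Cd14, Lbp and Ifngr2 are red in both comparisons of the lines, and no point is red or yellow in the interaction.

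The interaction, which tests whether the response to IFNγ/LPS differed between the lines, called 0 of the 10 genes in edgeR and 0 in DESeq2, although Myd88 in DESeq2 and Lbp in limma on log2(TPM + 1) passed the adjusted p under 2-fold, where edgeR called 4.71% of all genes tested and 5.7% had an adjusted p under 0.05. At an unadjusted p under 0.05 in edgeR there were 2 of the 10, Myd88 and Ticam1, beside 3198 of all 16127 genes tested, a similar share. The median interaction of the 10 genes was 0.17, beside -0.02 for all genes. The approximate 95% intervals held a 2-fold difference between the responses for Ticam1 (-1.38 to -0.09), Ly96 (-0.74 to 1.06), Tlr4 (-0.60 to 1.30), Jak1 (-0.55 to 1.29), Jak2 (-0.32 to 1.4996) and Myd88 (0.13 to 1.01). For Cd14 (-0.63 to 0.89), Lbp (-0.95 to 0.57), Ifngr1 (-0.31 to 0.56) and Ifngr2 (-0.24 to 0.60) such a difference lay outside the interval in edgeR. For Lbp this rested on the scale, since the limma interaction was 0.73 (standard error 0.251) on log2(TPM + 0.5) and 0.83 (standard error 0.192) on log2(TPM + 1), close enough to 2-fold not to exclude it. Without the 2 libraries that stood apart, the interaction of Myd88 was 0.43 with an adjusted p of 0.0376 (edgeR), under 2-fold.

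Further genes of both pathways were read from 5 lists. Of 20 other adaptors, kinases and ubiquitin ligases of the TLR4 pathway, 19 were tested. Ikbke, a kinase that phosphorylates IRF3, was called in every comparison. Its level was 0.661 ± 0.237 TPM (SD, n = 3) in STHdhQ7 cells and 1.39 ± 0.363 after treatment, and 5.24 ± 0.167 TPM in STHdhQ111 cells and 24.4 ± 5.05 after treatment. Its response was larger in STHdhQ111 cells by 1.03 on the log2 scale (standard error 0.245, adjusted p = 0.0314, edgeR). Irak2, a kinase of the MYD88 complex, was called in Q111-T vs. Q111-C at 1.71 (standard error 0.325, adjusted p = 0.00311, edgeR). In Q7-T vs. Q7-C it rose by 1.22, just short of the threshold (standard error 0.321, adjusted p = 0.0518, edgeR). The responses of Irak2 differed by 0.50, not past the threshold (interaction, adjusted p = 0.598, edgeR). Peli1, an E3 ubiquitin ligase, was higher in Q111-T vs. Q7-T by 1.90 (standard error 0.579, adjusted p = 0.0232, edgeR). Its Q7-T libraries were widely spread, at 3.81 ± 3.34 TPM (SD, n = 3). Ikbkg, the regulatory subunit of the IKK complex, was higher in Q111-T vs. Q7-T by 1.47 (standard error 0.174, adjusted p = 7.02e-05, edgeR). In total 1 of the 19 was called between the nontreated lines, 3 between the treated lines, 1 in the response of STHdhQ7 cells and 2 in that of STHdhQ111 cells, all upward, with list medians of 0.09, 0.42, 0.08 and 0.47. Of all genes tested, 7.62%, 13.3%, 2.93% and 8.28% were called upward in the same order.

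Among 12 tested genes that fold or restrain TLR4 or handle LPS, 3 were called upward and 1 downward between the nontreated lines, and 3 and 1 between the treated lines. Treatment raised 3 in STHdhQ7 cells and 4 in STHdhQ111 cells, with none called lower. In either direction, 15.2%, 24.5%, 4.04% and 11.2% of all genes tested were called in these comparisons. The list medians in these 4 comparisons were 0.25, 0.27, 0.07 and 0.18. Unc93b1, which carries endosomal Toll-like receptors to their compartment, was higher in STHdhQ111 cells by 2.68 without treatment and by 3.73 with it (adjusted p = 5.30e-05 and 5.43e-06, edgeR). Its level was 0.601 ± 0.224 TPM in Q7-C and 0.530 ± 0.182 in Q7-T, close to the 0.5 TPM of the filter. In Q111-C it was 4.89 ± 1.14 TPM and in Q111-T 9.11 ± 1.94 TPM (SD, n = 3 each). Casp4, the intracellular LPS receptor caspase-11, went from 0.132 ± 0.0275 to 11.4 ± 1.40 TPM in STHdhQ7 cells and from 0.595 ± 0.186 to 17.0 ± 0.662 TPM in STHdhQ111 cells (SD, n = 3 each). Its log2 response was smaller in STHdhQ111 cells (interaction -1.71, standard error 0.429, adjusted p = 0.0398, edgeR). The mean of Casp4 in nontreated STHdhQ7 cells was under 0.5 TPM, the minimum of the filter. Its interaction on other scales is not given here. Irak3, an inhibitor of IRAK signalling, rose by 2.12 in STHdhQ7 cells and by 1.48 in STHdhQ111 cells, and was among the genes higher in STHdhQ111 cells in both conditions, by 2.04 and 1.40. Tnfaip3, the ubiquitin-editing inhibitor A20, rose by 1.40 in STHdhQ7 cells and by 2.81 in STHdhQ111 cells, and the difference between these responses was not past the threshold (interaction 1.41, adjusted p = 0.115, edgeR). That of Irak3 was not past it either (-0.64, adjusted p = 0.277, edgeR). Pltp, a lipid transfer protein related to LBP, was the gene called lower in Q111-C, by a log2 fold change of -2.17, and rose by 1.76 with treatment in STHdhQ111 cells. Cnpy3, a chaperone of Toll-like receptors, was lower in Q111-T vs. Q7-T, at -1.07. Cnpy4, its relative, was called in the interaction, at -1.05.

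Only 4 of the 8 other Toll-like receptors with a row passed the filter. Tlr2, which recognizes bacterial lipopeptides, rose by 2.86 in STHdhQ7 cells (standard error 0.140, adjusted p = 2.25e-07, edgeR) and by 1.956 in STHdhQ111 cells (standard error 0.135, adjusted p = 1.87e-06, edgeR). Tlr3, the receptor for double-stranded RNA that signals through TICAM1, went from 1.69 ± 0.711 to 4.17 ± 2.49 TPM in STHdhQ7 cells and from 2.83 ± 0.574 to 32.4 ± 6.79 TPM in STHdhQ111 cells (SD, n = 3 each). Its interaction was 2.18 (standard error 0.449, adjusted p = 0.0149, edgeR). That of Tlr2 went the other way, at -0.91, and was past the adjusted p under 2-fold (standard error 0.186, adjusted p = 0.0145, edgeR), and the median interaction of the 4 receptors was -0.84. Tlr1 was lower in STHdhQ111 cells in both conditions, by log2 fold changes of -2.77 and -3.54, and Tlr6 was lower in Q111-T than in either Q7-T or Q111-C, by -3.86 and -2.10, all from means of about 1 TPM or less. Thus 0 were called upward and 1 downward between the nontreated lines, 1 and 2 between the treated lines, 2 and 0 in the response of STHdhQ7 cells, and 2 and 1 in that of STHdhQ111 cells, where the shares of all genes called in either direction were 15.2%, 24.5%, 4.04% and 11.2%. The list medians were -0.33, -1.78, 1.02 and 0.40.

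Of 6 tested interferon-family receptors and Janus kinases, 1 was called between the nontreated lines, 2 between the treated lines and 1 in each treatment comparison, all upward, beside 7.62%, 13.3%, 2.93% and 8.28% of all genes called upward. The list medians were 0.67, 0.66, 0.13 and 0.42. Ifnar2, a chain of the type I interferon receptor, rose by 1.01 in STHdhQ7 cells and by 1.46 in STHdhQ111 cells (adjusted p = 0.00214 and 6.20e-05, edgeR). Jak3 was higher in STHdhQ111 cells by 1.21 and 1.02 in the 2 conditions, and Il10rb, a shared chain of the interleukin-10 and interferon lambda receptors, by 1.15 in treated cells. Below the IFNγ receptor, 8 of 13 transcription factors and inhibitors responded upward past the test in STHdhQ7 cells and 7 of 13 in STHdhQ111 cells, beside 2.93% and 8.28% of all genes, with medians of 2.45 and 1.67. Irf1 rose by 4.15 and 3.61 and Irf8 by 6.18 and 6.23 in STHdhQ7 and STHdhQ111 cells. The interactions of Ifnar2, Irf1 and Irf8 were 0.45, -0.54 and 0.05, none past the threshold (adjusted p = 0.294, 0.281 and 0.981, edgeR). In nontreated cells 5 of the 13 were higher in STHdhQ111 cells, among them Irf9 at 2.43 and Stat2 at 1.41, and after treatment 2 were, Irf9 at 1.75 and Ptpn6 at 1.21, beside 7.62% and 13.3% of all genes called upward. The medians of this list were 0.61 and 0.34 between the lines and -0.53 in the interaction, against -0.02 for all genes in the latter.

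The genes with the most similar patterns were sought among 13338 genes with a mean of at least 1 TPM, by Pearson r of log2(TPM + 0.5) over the 12 libraries. These r describe likeness only, since the libraries share 4 groups and the differences by transcript length. Lbp was closest to Ifi204 (0.994), Apol10b (0.993) and H2-Q6 (0.992), and Cd14 to Isg20 (0.997), Elf3 (0.995) and Oas1c (0.992). Myd88 was closest to Tubb2a (0.997), Hpse (0.995) and Parp11 (0.993). Tlr4 lay nearest to Siae (0.993), Dbt (0.992) and Nrg1 (0.992), Ly96 to Itm2b (0.981), Ctso (0.977) and Pole4 (0.976), and Ifngr2 to Armcx1 (0.994), Caprin2 (0.993) and Mfsd9 (0.991). Ifngr1 was nearest to Lhfp (0.982), Septin10 (0.975) and Sc5d (0.974), and Jak1 to Ttpal, Ggnbp2 and Ttf1 (0.993 each). Jak2 followed Cttnbp2nl (0.987), Spidr (0.979) and Tbk1 (0.979), a kinase below TICAM1. The weakest likeness was that of Ticam1, to Dph1 (0.926), Pcif1 (0.925) and Idh3b (0.914). Among the 10 genes themselves, the closest pair was Tlr4 and Ifngr2 (0.973), followed by Cd14 and Ly96 (0.945).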

How the data were processed

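Poly(A) RNA of 12 libraries was sequenced from both ends after stranded library preparation. Per the labels and the study's methods, the authors trimmed reads with Cutadapt, aligned them with HISAT2 to GRCm38 and estimated expression with StringTie. The authors deposited TPM and estimated counts for 29428 genes. The counts are whole numbers without normalization that sum to between 57505990 and 96417834 per library, and took multiples of 4 more often than the neighbouring even numbers, so that 1 count may not be 1 read pair. A fit on counts scaled down by 4 was an alternative. The deposited TPM sum to between 688352 and 719623 per library.

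The 16127 genes reaching 0.5 TPM in 3 or more libraries were tested with edgeR 4.0.16 (R 4.3.3, TMM scaling, quasi-likelihood test) in one fit of the 12 libraries with 4 group means. Calls needed a Benjamini-Hochberg adjusted p under 0.05 and a 2-fold change, which are the study's thresholds. Standard errors came from the F statistic, and approximate 95% intervals use the t distribution with the test's total degrees of freedom. limma 3.58.1, DESeq2 1.42.0, RLE scaling, other filters, a replicate block, fits of 2 groups and leaving out each library were alternatives. The edgeR step was tested on simulated counts. Within-library ratios were compared by exact permutation tests in SciPy 1.17.1. No library was a repeat of another.

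The 10 genes, the 5 pathway lists and the lists of macrophage or microglia, striatal neuron, astrocyte, endothelial and mesenchymal markers were chosen with earlier results of these data known. Text names the 10 genes, up to 3 called genes per list, comparison and direction, and the 3 nearest patterns per gene. A called gene of the list below the IFNγ receptor counts toward that list but its own values are not reported here.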

Additional observations from a re-analysis of the deposited data

How the results depend on the processing

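The number of the 10 genes called kept within 1.5 times its value in all other alternatives, but in Q7-T vs. Q7-C it was 1 instead of 3 in limma on log2(TPM + 1) and 1 in the fit of those 2 groups alone. Leaving out each library in turn gave 3 to 4 in Q111-C vs. Q7-C, 4 to 6 in Q111-T vs. Q7-T, 2 to 3 and 3 to 4 in the responses of STHdhQ7 and STHdhQ111 cells and 0 in the interaction. Replicate numbers did not pair the samples, as 6 of 18 same-numbered correlations exceeded 0.1 and in 5 of the 18 a sample was closest to its own number. With the replicate block, 4, 4, 3, 4 and 0 of the 10 genes were called in the same order, as without it, and the log2 fold change of Jak1 in Q7-T vs. Q7-C was -0.0037. Over all genes, calls in Q7-T vs. Q7-C were 651 in edgeR, 414 in limma on log2(TPM + 1) and 394 with those 2 groups alone, and calls in the interaction were 760, 1299 in DESeq2 and 1374 without Q7-C replicate 1 and Q7-T replicate 2. In limma on log2(TPM + 0.5), 66.0% of calls were higher in Q111-C vs. Q7-C and 79.1% in Q111-T vs. Q7-T, against 50.04% and 54.2% in edgeR.

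Log2 fold changes turned sign as follows, always for values not called, although the Lbp interaction of 0.83 in limma on log2(TPM + 1) passed the adjusted p (0.0249), and the cause was not tested. In limma with pseudocounts of 0.5, 0.1 and 1, the Lbp interaction was 0.73, 0.28 and 0.83, Ifngr1 in Q111-T vs. Q7-T 0.043, 0.045 and 0.041, Ifngr1 in Q111-T vs. Q111-C -0.075, -0.076 and -0.073, Jak1 in Q7-T vs. Q7-C -0.17, -0.18 and -0.17, Jak2 in Q111-C vs. Q7-C 0.10, 0.11 and 0.098, and Ticam1 in Q111-C vs. Q7-C 0.20, 0.20 and 0.19. With quantile-normalized TPM the Lbp interaction was 0.46, Ifngr1 in Q111-T vs. Q111-C -0.048 and Jak1 in Q7-T vs. Q7-C -0.057. Without Q7-C replicate 1 and Q7-T replicate 2, the Lbp interaction was 0.016, Ifngr1 in Q7-T vs. Q7-C 0.0052 and Jak1 there -0.027, and without a filter Jak1 was -0.0071. With single libraries left out, Tlr4 in Q7-T vs. Q7-C ranged from -0.38 to 0.12, Ifngr1 from -0.18 to 0.022 and Jak1 from -0.25 to 0.26. Ifngr1 in Q111-T vs. Q111-C ranged from -0.081 to 0.079. The interactions ranged from -0.15 to 0.35 for Cd14, -0.13 to 0.40 for Ly96 and -0.40 to 0.019 for Lbp. Of the 20 ratio comparisons, Jak2/Jak1 in Q7-T vs. Q7-C moved by more than 1 SD, to 0.61 without those 2 libraries.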
